A study of Homo sapiens with 12 samples.

Results

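The genes described here encode the subunits of oxidative phosphorylation, the respiratory chain (complexes I to IV) and ATP synthase (complex V), in HEK293, an established cell line of human embryonic kidney origin. They were chosen by name: rows of the deposited gene table whose symbol starts with MT-, NDUFA, NDUFB, NDUFC, NDUFS, NDUFV, UQCR, COX4, COX5, COX6, COX7, COX8 or ATP5, with SDHA, SDHB, SDHC and SDHD. This gave 111 of 19836 rows: 13 mitochondrially encoded genes, 83 nuclear subunit genes, 8 NDUFAF assembly factors of complex I, 3 read-through rows, 3 retrocopies or paralogs (UQCRHL, ATP5EP2, ATP5L2) and ATP5S, a coupling factor. Tests were run on the 103 rows that averaged 10 or more normalized counts across the 12 libraries. Of the 8 others, COX4I2, COX6A2, COX7A1 and COX7B2 were at 0 in all 12 libraries, and NDUFC2-KCTD14, a second SDHD identifier, ATP5EP2 and ATP5L2 were below the minimum.

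There were 4 groups of 3 libraries: A197-270 + IFN-gamma (libraries 10 to 12), vector + IFN-gamma (7 to 9), A197-270 (4 to 6) and vector (1 to 3). Cells were transduced on day 1 with a Flag vector or with the A197-270 tandem plasmid and harvested on day 4. IFN-gamma, a cytokine that signals through JAK1 and JAK2, was added on day 2 in 2 of the groups. The labels leave unsaid which sequence the A197-270 plasmid carries. The labels do not say that libraries came from separate cultures, so p-values measure the spread between these libraries, which may be technical.

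Recovered depths ran from 31417431 to 70746868 reads per library, with A197-270 5 and vector 3 deepest. The HEK293 markers VIM, KRT8, KRT18, CDH2, NEFL, NEFM and PAX2 were present in every library, and of the markers of other cell types HBB and INS were at 0 in all of them. All 13 mitochondrially encoded genes had the highest value of their group in A197-270 + IFN-gamma 12, A197-270 5 and vector 3, and 11 of 13 did in vector + IFN-gamma 7. The 13 genes thus moved together between libraries of a group, so results are also given relative to the nuclear subunits and within the mitochondrial RNA pool.

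Oxidative phosphorylation passes electrons from NADH (complex I) and succinate (complex II) through complex III to oxygen at complex IV, and the proton gradient built on the way drives ATP synthase. The subunits come from 2 genomes. Mitochondrial DNA encodes some of the membrane subunits and is transcribed as long precursors that are cut apart, mostly at tRNAs, whereas nuclear subunits are transcribed one by one, translated in the cytosol and imported. MT-ND6 is encoded on the opposite strand from the other 12 genes, and its mRNA is known to carry little or no poly(A) tail.

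A pair of mitochondrial mRNAs hold more than one reading frame, so their rows share bases, and the files do not say how shared reads were counted. The shared stretches are shown because values of MT-ATP8 and MT-ATP6, and of MT-ND4L and MT-ND4, are for that reason not separate measurements. They are from the reference mitochondrial genome (GRCh38, plus strand), at chrM:8527-8572 (46 bases) and chrM:10760-10766 (7 bases). Capitals mark the start codon of the downstream gene and, in the first, the stop codon of the upstream gene.
MT-ATP8 and MT-ATP6: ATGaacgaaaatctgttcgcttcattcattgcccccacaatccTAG
MT-ND4L and MT-ND4: ATGctaa

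All levels below are normalized read counts, gene counts divided by 1 factor per library, and fold changes are log2 of the value + 1, which understates changes of low genes. Errors of means are SD over n = 3 libraries and errors of log2 fold changes are standard errors (SE). A gene is called higher or lower where limma's test over all 14049 tested genes gave a Benjamini-Hochberg adjusted p under 0.05.

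In A197-270 cells, 10 of 13 mitochondrially encoded genes rose relative to vector cells and 0 fell, while nuclear subunits of the same complexes stayed near their vector level. Over all tested genes 12.5% were called higher and 12.6% lower. The median log2 fold change was 0.76 for the mitochondrial genes and -0.0046 for the 79 tested nuclear subunits, against -0.00078 for all tested genes. The 3 that did not pass were MT-ND1, MT-ND2 and MT-ND6, and in the 10 others every A197-270 library lay above every vector library. Of the 79 nuclear subunits, 18 lay wholly above the vector group and 16 wholly below it, close to the 19.7% and 20.1% of all tested genes. In bulk RNA, more RNA per cell and a larger share of cells with that RNA cannot be told apart.

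MT-CYB (ENSG00000198727.2, mitochondrial chromosome, 14747 to 15887), the cytochrome b of complex III and its only mitochondrially encoded subunit, changed most. It had 11680.3, 16550.3 and 11979 normalized counts in A197-270 libraries, against 4429.7, 4732 and 5944 in vector libraries. Every A197-270 library was above every vector library. The means were 13403 ± 2729.5 in A197-270 cells and 5035 ± 801 in vector cells, a 2.65-fold difference (log2 1.41 ± 0.15 SE, limma adjusted p = 1.43e-05).

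MT-ND1 (ENSG00000198888.2, 3307 to 4262), a complex I subunit at the quinone-binding end of the membrane arm, behaved otherwise. It had 9648, 15369 and 11733 normalized counts in A197-270 libraries, against 12153, 12999.8 and 16041 in vector libraries, and the groups overlapped. The log2 fold change was -0.18 ± 0.14 SE (limma adjusted p = 0.383). MT-ND2 (4470 to 5511), its neighbour among the protein genes and also a complex I subunit, averaged 9621 ± 1770.2 in A197-270 cells and 8424 ± 1302 in vector cells (log2 0.19, adjusted p = 0.363).

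The genes between them lay between those values. MT-CO1 (5904 to 7445), the catalytic subunit of cytochrome oxidase, averaged 45464 ± 8657 in A197-270 cells and 31159 ± 5573 in vector cells (log2 0.54, limma adjusted p = 0.0202). Its call was lost without A197-270 5 (adjusted p = 0.0935), vector 1 (0.0792) or vector 2 (0.0629), and under quantile normalization (0.075). MT-CO2 (7586 to 8269), the subunit that receives electrons from cytochrome c, had 25169, 35192 and 27683 normalized counts in A197-270 libraries, against 16115, 17061 and 18294 in vector libraries. Those groups did not overlap, and the fold change was 1.70 (log2 0.76 ± 0.124 SE, adjusted p = 0.000511). The log2 fold changes were 0.75 for MT-CO3, the remaining core subunit of complex IV, 0.72 for MT-ATP8 and 0.77 for MT-ATP6, membrane subunits of ATP synthase. Downstream of them the complex I subunits MT-ND3, MT-ND4L, MT-ND4 and MT-ND5 had 0.94, 0.91, 0.90 and 0.86 (adjusted p 4.92e-05 to 0.00259). MT-ND4 (10760 to 12137) had the highest level per kilobase of exon among the mitochondrially encoded genes over all libraries. Its normalized counts were 57219, 84621 and 62734 in A197-270 libraries, against 31342, 34054 and 43978 in vector libraries.

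With IFN-gamma present in both groups, 7 of 13 mitochondrially encoded genes were higher in A197-270 + IFN-gamma cells than in vector + IFN-gamma cells and 0 were lower, where 18.6% of all tested genes were called higher and 16.2% lower. The median log2 fold change was 0.43, against 0.056 for the 79 nuclear subunits and -0.005 for all tested genes. Values of 8 of the 13 lay wholly above the vector + IFN-gamma group, as did those of 22 of the 79 nuclear subunits, while 5 nuclear subunits lay wholly below it. Over all tested genes 23.5% were above and 22.9% below without overlap. MT-CYB again had the largest fold change among the 13. It had 8945, 7802 and 11594 normalized counts in A197-270 + IFN-gamma libraries, against 5158, 4326 and 4781 in vector + IFN-gamma libraries, with no overlap (1.96-fold, log2 0.97 ± 0.15 SE, limma adjusted p = 0.000247). The others called were MT-CO1 (0.43), MT-CO2 (0.73), MT-ND3 (0.77), MT-ND4L (0.71), MT-ND4 (0.68) and MT-ND5 (0.65). The MT-CO1 difference was 0.27 (adjusted p = 0.201) without A197-270 + IFN-gamma 12, and its call was lost in 9 other alternatives, while that of MT-ND5 was lost without the same library (adjusted p = 0.0518) and under quantile normalization (0.0564).

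MT-ATP8, MT-ATP6 and MT-CO3, adjacent on the chromosome, had log2 fold changes of 0.41, 0.40 and 0.37 with IFN-gamma present and did not pass (limma adjusted p 0.0679 to 0.116). MT-ND1 had 15522, 13542 and 16952 normalized counts in A197-270 + IFN-gamma libraries, against 18853, 16165 and 18045 in vector + IFN-gamma libraries. The groups overlapped, and the log2 fold change was -0.21 ± 0.14 SE (adjusted p = 0.269).

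MT-ND6 (14149 to 14673), a complex I subunit on the opposite strand, did not pass in either construct comparison. It averaged 4512 ± 1252 normalized counts in A197-270 + IFN-gamma cells and 3981 ± 272 in vector + IFN-gamma cells (log2 0.15 ± 0.211 SE, limma adjusted p = 0.629). Without IFN-gamma the means were 3718 ± 1173 in A197-270 cells and 3021 ± 698 in vector cells (log2 0.28, adjusted p = 0.368). It lies between MT-ND5 and MT-CYB, genes that were higher in A197-270 cells in both comparisons. The labels do not say whether the authors' counting used strand, so reads from the RNA opposite MT-ND6 cannot be told apart from its own.

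The fold changes tended to rise with the order of the genes on the chromosome, least so with IFN-gamma present, where MT-ATP8, MT-ATP6 and MT-CO3 lay below MT-CO2. Over the 12 genes read in the plus direction, known as the heavy-strand genes, Spearman's rho between the log2 fold change and the gene's start was 0.895 for A197-270 against vector and 0.671 for A197-270 + IFN-gamma against vector + IFN-gamma. These are descriptions across genes of 1 molecule, which share libraries and precursor transcripts. Without the deepest libraries A197-270 5 and vector 3, the rho without IFN-gamma was 0.916, and under quantile normalization it was 0.741.

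**Figure D1:**
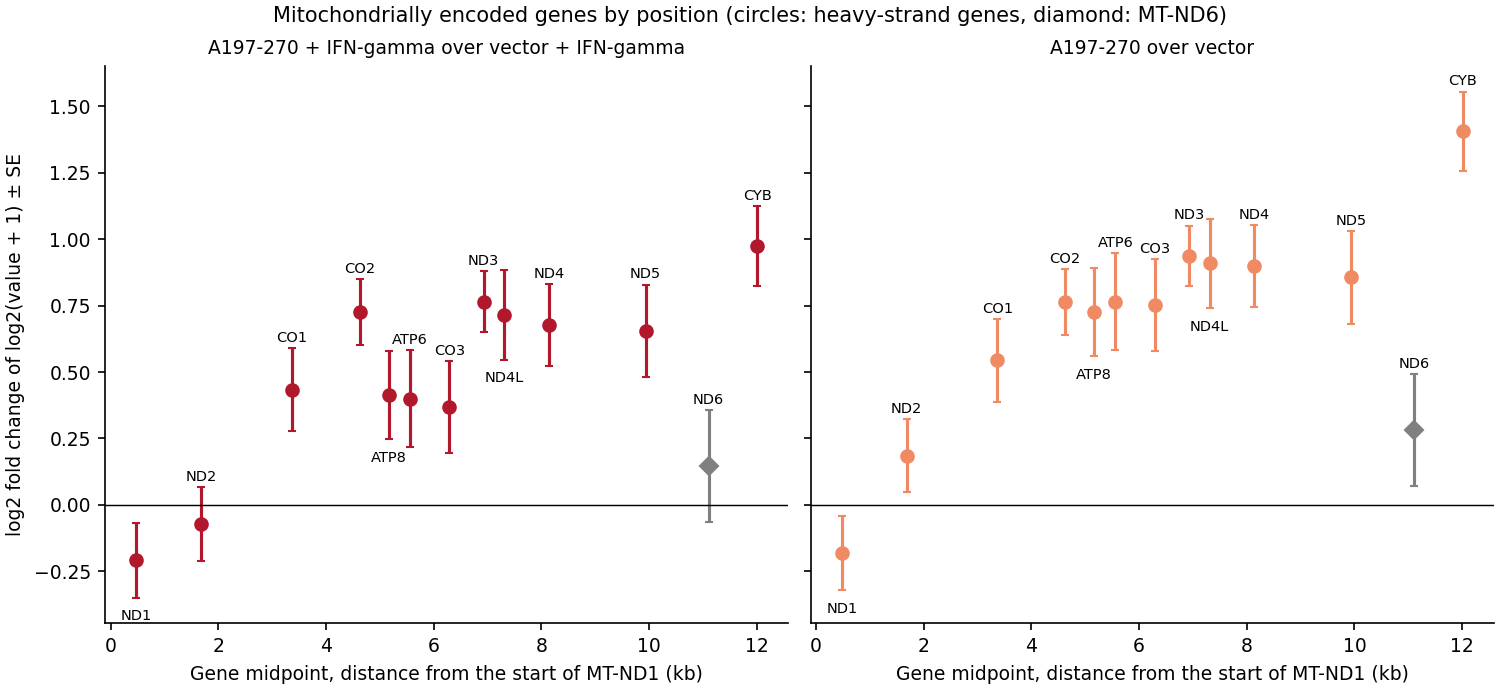
Log2 fold change of each mitochondrially encoded gene (vertical axis, ± SE from limma, n = 3 libraries per group) against the distance of its midpoint from the start of MT-ND1 in kilobases (horizontal axis), with IFN-gamma in both groups (left) and without (right). MT-ND1 and MT-ND2 sit lowest and MT-CYB highest in both panels, and the grey diamond is MT-ND6, which lies on the other strand.

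A ratio of genes within a library does not depend on library scaling, and the ratio of MT-CYB to MT-ND1 was picked after their values were seen, so it is a description with no test. It was 0.576, 0.576 and 0.684 in A197-270 + IFN-gamma libraries, against 0.274, 0.268 and 0.265 in vector + IFN-gamma libraries. Without IFN-gamma it was 1.21, 1.08 and 1.02 in A197-270 libraries, against 0.365, 0.364 and 0.371 in vector libraries. None of these groups overlapped, although MT-ND1 itself did, and the mean ratio was 2.28-fold higher with the construct in the presence of IFN-gamma and 3.01-fold higher in its absence. The SD of the vector libraries was 0.00362 around a mean of 0.366, while their MT-CYB values spread from 4429.7 to 5944.

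The same ratio was lower with IFN-gamma in each arm. It was 0.555-fold in A197-270 + IFN-gamma relative to A197-270 cells and 0.734-fold in vector + IFN-gamma relative to vector cells, again with no overlap. With MT-ND2 as denominator, also picked after its values were seen, MT-CYB was 2.06-fold higher with the construct in the presence of IFN-gamma. In its absence that ratio was 2.34-fold higher. It was 0.678-fold with IFN-gamma in A197-270 cells and 0.768-fold in vector cells. The ratios of other genes below all share MT-ND1, whose own value did not rise with the construct, so they are not separate results. MT-ND4 over MT-ND1 averaged 3.65 ± 0.317 in A197-270 + IFN-gamma cells and 1.97 ± 0.0967 in vector + IFN-gamma cells, and 5.59 ± 0.302 in A197-270 cells and 2.65 ± 0.0846 in vector cells. MT-ND3 over MT-ND1 was 1.96-fold and MT-CO2 over MT-ND1 1.91-fold higher with the construct in the presence of IFN-gamma, and 2.17-fold and 1.92-fold higher in its absence.

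**Figure D2:**
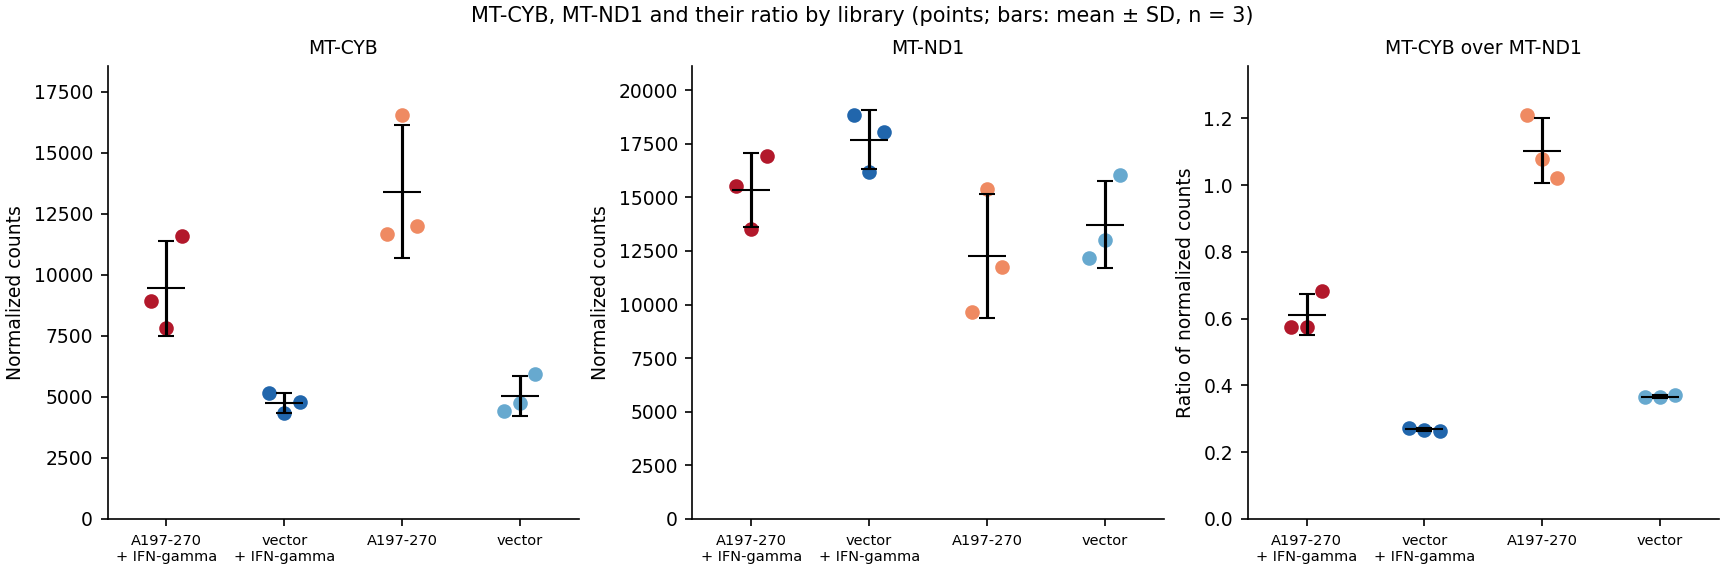
Normalized counts of MT-CYB (left) and MT-ND1 (middle) and their ratio (right) in each library, with points for libraries and bars for mean ± SD (n = 3). The MT-ND1 groups with and without the construct overlap, whereas the ratio separates all 4 groups, with A197-270 libraries at 1.02 to 1.21 and vector libraries at 0.364 to 0.371.

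Shares of the 13-gene sum must add to 100%, so a rise of one gene lowers others. With the construct the shares of MT-ND1, MT-ND2, MT-CO1 and MT-ND6 were lower in both pairs, without overlap. Those of MT-ND3, MT-ND4L, MT-ND4, MT-ND5 and MT-CYB were higher in both pairs, without overlap. The mean share of MT-ND6, next to MT-CYB, was 0.787-fold with IFN-gamma present and 0.744-fold without. MT-CO2 overlapped without IFN-gamma and was higher with it. MT-ND1 made up 6.43% ± 0.566 of the sum in A197-270 + IFN-gamma cells and 10.4% ± 0.276 in vector + IFN-gamma cells, and 4.58% ± 0.239 in A197-270 cells and 8.48% ± 0.231 in vector cells. MT-CYB made up 3.92% ± 0.114 in A197-270 + IFN-gamma cells and 2.81% ± 0.0821 in vector + IFN-gamma cells, and 5.03% ± 0.175 in A197-270 cells and 3.11% ± 0.0676 in vector cells. MT-ND4, the largest part of the pool, was 23.3% ± 0.269 in A197-270 + IFN-gamma cells and 20.6% ± 0.474 in vector + IFN-gamma cells, and 25.6% ± 0.0239 in A197-270 cells and 22.4% ± 0.344 in vector cells. For these 3 genes the groups of neither pair overlapped. The shares of MT-ATP8, MT-ATP6 and MT-CO3, from the middle of the order, overlapped between A197-270 and vector libraries. With IFN-gamma present MT-ATP8 overlapped too, whereas MT-ATP6 (3.74% ± 0.0347 in A197-270 + IFN-gamma cells and 3.99% ± 0.118 in vector + IFN-gamma cells) and MT-CO3 (3.64% ± 0.0567 in A197-270 + IFN-gamma cells and 3.97% ± 0.0645 in vector + IFN-gamma cells) lay wholly below the vector + IFN-gamma group.

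**Figure D3:**
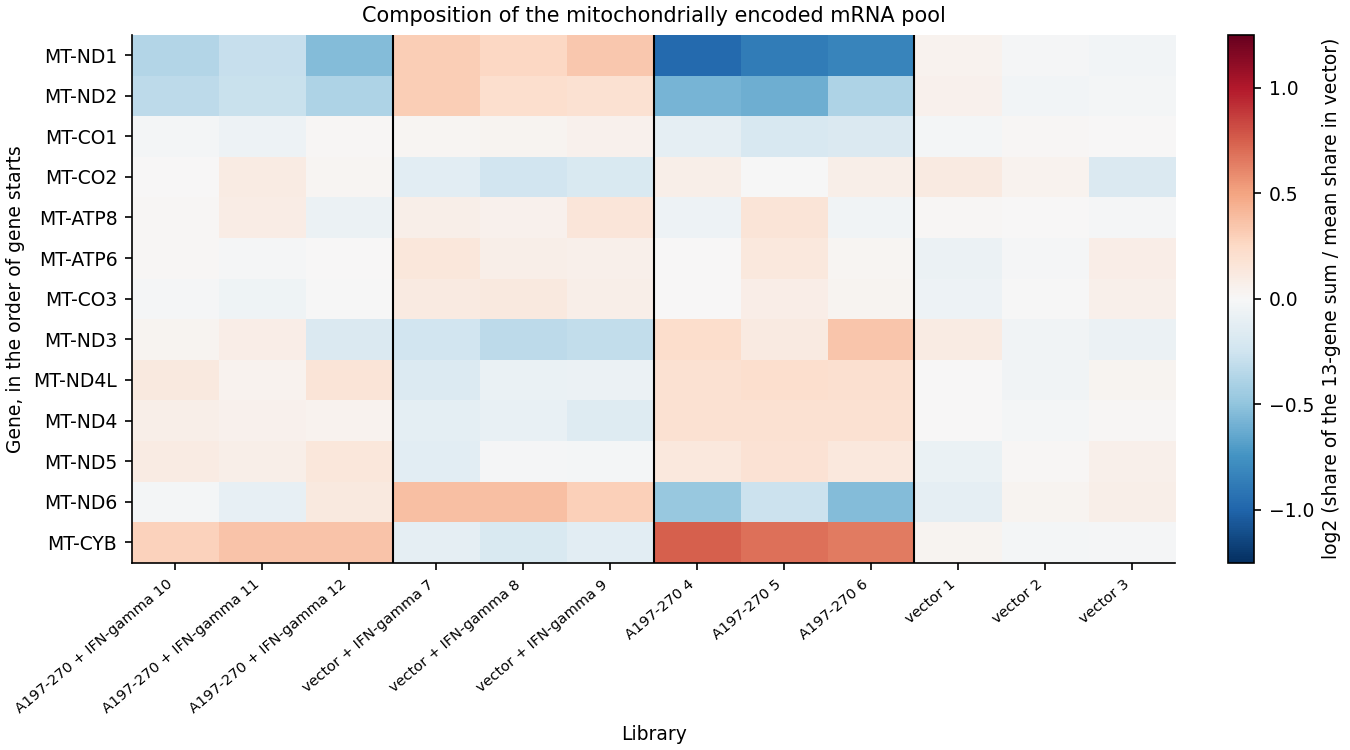
Share of each gene in the 13-gene mitochondrial sum of a library, as log2 of the share over its mean in vector libraries (colour), with genes in order of their starts (rows) and libraries by group (columns). In A197-270 libraries MT-ND1 and MT-ND2 are below the vector mean and MT-CYB above it, and in vector + IFN-gamma libraries MT-ND1, MT-ND2 and MT-ND6 are above it.

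Some nuclear pseudogenes are copies of mitochondrial DNA, and reads from such stretches may be lost or placed elsewhere. The share of 100-base windows of a gene found exactly in a nuclear copy named in GENCODE 29 was 94 of 857 windows for MT-ND1, 26.1% for MT-ND2, 27.9% for MT-CO1, 2.39% for MT-CO2, 11.9% for MT-ATP6 and 4.38% for MT-CO3. It was 0 for MT-ATP8, MT-ND3, MT-ND4L, MT-ND4, MT-ND5, MT-ND6 and MT-CYB. The labels state no read length, and the part of such copies in the order of fold changes was not tested. The 11 protein-coding MTRNR2L rows, nuclear copies of part of a mitochondrial rRNA gene, together held 52.1 to 78.4 normalized counts in A197-270 + IFN-gamma, 75.1 to 87.7 in vector + IFN-gamma, 35.7 to 50.4 in A197-270 and 47.6 to 60.2 in vector libraries. Of these rows 2 were tested, and neither was called by limma in any of the 5 comparisons.

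Each mitochondrial gene was set against the nuclear subunits of its own complex by taking its log2 value minus the mean log2 value of those subunits in the same library. For A197-270 against vector, 10 of 13 differences did not overlap and were above, with a median of 0.76. For A197-270 + IFN-gamma against vector + IFN-gamma, 6 of 13 did so, with a median of 0.37, which was 0.18 without A197-270 + IFN-gamma 12. Of all tested genes, 19.5% and 16.2% were above without overlap in those comparisons when set against the complex I nuclear mean.

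In complex III, MT-CYB minus the nuclear mean was 0.96 ± 0.325 in A197-270 + IFN-gamma cells and 0.0761 ± 0.178 in vector + IFN-gamma cells, and 1.44 ± 0.312 in A197-270 cells and 0.022 ± 0.22 in vector cells. The 8 nuclear subunits of that complex had log2 fold changes of -0.087 to 0.28 with IFN-gamma present and -0.16 to 0.14 without, all below that of MT-CYB. In complex IV, MT-CO1, MT-CO2 and MT-CO3 had higher fold changes than all 15 tested nuclear subunits in both construct comparisons. In complex V, MT-ATP6 and MT-ATP8 were above 14 of 15 nuclear subunits with IFN-gamma present, the exception being ATP5A1, and above all 15 without. In complex I, MT-ND3, MT-ND4L, MT-ND4 and MT-ND5 were above all 37 nuclear subunits in both comparisons, whereas MT-ND1 was above 1 of 37 with IFN-gamma present and 2 of 37 without. Complex II has no mitochondrially encoded subunit.

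**Figure D4:**
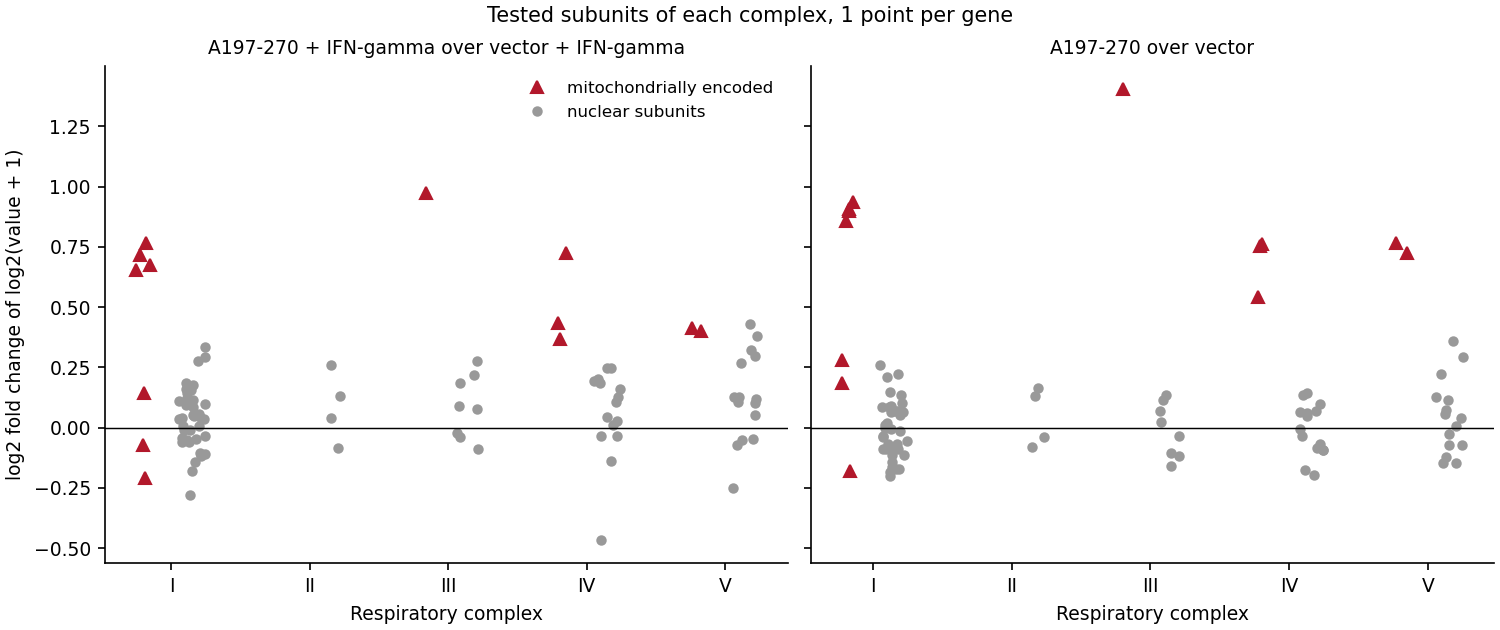
Log2 fold change (vertical axis) of every tested subunit gene by complex (horizontal axis), with IFN-gamma in both groups (left) and without (right). Red triangles are mitochondrially encoded genes and grey circles nuclear subunits, which in the right panel lie between -0.20 and 0.36, while 10 of 13 mitochondrially encoded genes are above 0.5.

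Summed over the 13 genes, mitochondrial values averaged 241198 ± 48165 in A197-270 + IFN-gamma cells and 169278 ± 10088 in vector + IFN-gamma cells, and 266747 ± 56922 in A197-270 cells and 162387 ± 28087 in vector cells. The sums did not overlap in either pair. Nuclear subunits summed to 365713 ± 14759.6 in A197-270 + IFN-gamma cells and 333049 ± 15515.5 in vector + IFN-gamma cells, and to 379583 ± 7973 in A197-270 cells and 364630 ± 3819 in vector cells.

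Per kilobase of exon, mean levels over all libraries were 35509 for MT-ND4, 32522 for MT-CO2 and 25208 for MT-CO1. By this length the nuclear member with the highest level per kilobase was ATP5B at 11095, below 8 of the 13 mitochondrial genes and above MT-CYB at 7152. The length was that of all annotated exons of a gene, merged over its transcripts. For nuclear genes it can exceed that of any single transcript, as in COX7C with 1993 such bases and 189 coding bases. The order among nuclear members, and their place against mitochondrial genes, thus depends on this definition. MT-CYB had the lowest level per kilobase among the 13, close to MT-ND3 at 7177 and MT-ND6 at 7254.

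The 90 tested nuclear members changed little and in both directions. In A197-270 cells 11 rose and 7 fell relative to vector cells, of which 10 and 5 were among the 79 subunits, and 7 were called higher and 20 lower when libraries were scaled to equal totals. The 11 rises were thus near the 12.5% of all tested genes called higher, and the 7 falls under the 12.6% called lower. The 7 falls were 4, 3 and 2 without A197-270 5, A197-270 6 and vector 2. With IFN-gamma present in both groups, 24 rose and 3 fell (22 and 3 among subunits), or 15 and 17 under equal totals, and 0 fell without vector + IFN-gamma 9. Of all tested genes 18.6% were higher and 16.2% lower there. The balance of small nuclear changes thus depended on the scaling, whereas 10 and 6 mitochondrial genes were called higher and 0 lower under equal totals, without and with IFN-gamma. All 11 that rose without IFN-gamma were among the 24 that rose with it, such as ATP5A1, ATP5B, ATP5F1, NDUFS1 and SDHC. NDUFV3 fell in both.

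In the catalytic head of ATP synthase 3 of 5 members were higher in each comparison, and with IFN-gamma present 1 was lower. Of all tested genes 18.6% were higher and 16.2% lower with IFN-gamma present, and 12.5% and 12.6% without. The head subunit ATP5A1 had the largest fold change of the 79 nuclear subunits in both comparisons. ATP5A1 (ENSG00000152234.15, chromosome 18, 46080248 to 46104334), the alpha subunit of the head, had 18524, 17501 and 16772 normalized counts in A197-270 + IFN-gamma libraries, against 12434, 13717 and 12999 in vector + IFN-gamma libraries. Without IFN-gamma it had 20334, 18903 and 20088 in A197-270 libraries, against 15051, 16116 and 15057 in vector libraries. Neither pair overlapped, and the log2 fold changes were 0.43 ± 0.0492 SE (limma adjusted p = 2.22e-05) and 0.36 ± 0.0492 SE (0.000128). The beta subunit ATP5B, which carries the catalytic sites, had 0.32 with IFN-gamma present and 0.22 without. The gamma subunit ATP5C1, the rotating shaft, had 0.30 and 0.13.

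The delta subunit ATP5D, also of the head, went the other way with IFN-gamma present, at 756 ± 27.4 normalized counts in A197-270 + IFN-gamma cells and 898 ± 21.0 in vector + IFN-gamma cells (log2 -0.25, limma adjusted p = 0.0229). That call was lost without A197-270 + IFN-gamma 10 (0.0767) or vector + IFN-gamma 9 (0.0765). In the peripheral stalk ATP5F1, subunit b, had 0.38 (adjusted p = 2.71e-05) and 0.29 (0.000282). ATP5S, a factor outside the core complex, averaged 774 ± 41.9 in A197-270 + IFN-gamma cells and 558 ± 26.0 in vector + IFN-gamma cells (log2 0.47), and 1002 ± 23.4 in A197-270 cells and 683 ± 68.8 in vector cells (log2 0.56, adjusted p = 0.000115).

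In complex I, 3 of the 7 nuclear subunits of the catalytic core rose in each construct comparison, NDUFS1 and NDUFV1 among them, where 18.6% of all tested genes were higher with IFN-gamma present and 12.5% without. NDUFS1 (ENSG00000023228.13, chromosome 2, 206114817 to 206159603), the largest core subunit, which holds iron-sulfur clusters, had 7494, 7066 and 7088 normalized counts in A197-270 + IFN-gamma libraries, against 5669, 5889 and 5621 in vector + IFN-gamma libraries. Without IFN-gamma it had 8082, 8269 and 8298 in A197-270 libraries, against 7004, 6892 and 6670.1 in vector libraries. All A197-270 values were above those of the matching vector group (log2 0.33, adjusted p = 1.55e-05, and 0.26, adjusted p = 0.000152, by limma). NDUFV1, which binds NADH, had 0.18 with IFN-gamma present and 0.22 without.

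Other complex I members fell. NDUFV3, an accessory subunit of the NADH module, averaged 2789 ± 126 in A197-270 + IFN-gamma cells and 3155 ± 132 in vector + IFN-gamma cells, and 2738 ± 97.8 in A197-270 cells and 3082 ± 121 in vector cells (log2 -0.18 and -0.17). The accessory subunits NDUFA6 (-0.20) and NDUFB1 (-0.18) fell without IFN-gamma and were not called with it, and their difference between the backgrounds did not pass the interaction test (limma adjusted p 0.558 and 0.519). NDUFS7, a core subunit, had -0.28 with IFN-gamma present (adjusted p = 0.0315), a call lost without 4 single libraries of those 2 groups. Of the 8 NDUFAF factors, which help to build complex I and are not part of it, NDUFAF5 (-0.29) and NDUFAF7 (-0.23) fell without IFN-gamma and none was called with it. Of all tested genes 12.6% were lower without IFN-gamma and 16.2% with it. The NDUFAF5 groups overlapped, and its call was lost in 6 alternatives, among them without A197-270 6 (adjusted p = 0.121) and without vector 1 (0.0999).

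In complex II, SDHC, a membrane anchor, averaged 6324 ± 209.6 normalized counts in A197-270 + IFN-gamma cells and 5283 ± 129 in vector + IFN-gamma cells, and 6456 ± 28.3 in A197-270 cells and 5763 ± 146 in vector cells (log2 0.26 and 0.16). In complex III, the core protein UQCRC2 had 0.22 (limma adjusted p = 0.000737) and 0.12 (0.0436), of which the second was lost in 11 alternatives, equal totals among them. UQCRB, which binds near the quinone site, had 0.28 with IFN-gamma present and 0.02 without, while the small subunit UQCR11 had -0.09 and -0.16, of which -0.16 was called. In complex IV, COX4I1, the common isoform of subunit 4, had 8973, 8718 and 8544 normalized counts in A197-270 + IFN-gamma libraries, against 6879, 7714 and 7549 in vector + IFN-gamma libraries, with no overlap (log2 0.25, adjusted p = 0.000552). Without IFN-gamma it had 9181, 8950.3 and 9244 in A197-270 libraries, against 8662, 8614 and 8895 in vector libraries (log2 0.06, adjusted p = 0.293). COX7A2L, a subunit 7a relative known for its part in supercomplexes, had 0.25 and 0.14. Its second call, like that of COX6B1 (-0.17 without IFN-gamma), lay close to the threshold and was lost in 11 and 12 alternatives.

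**Figure D5:**
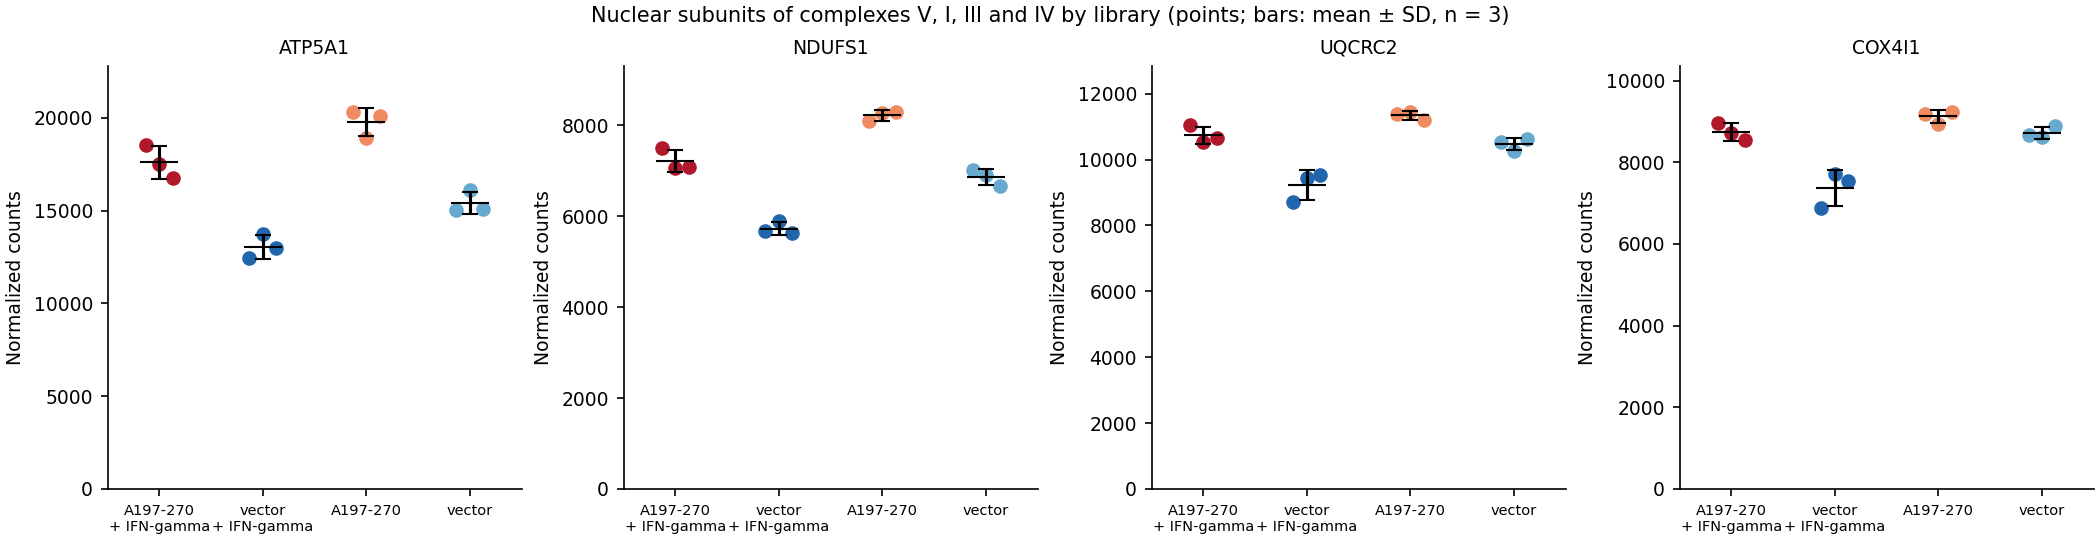
Normalized counts (vertical axis) of ATP5A1, NDUFS1, UQCRC2 and COX4I1 in each library by group (horizontal axis), with points for libraries and bars for mean ± SD (n = 3). All 4 genes are lowest in vector + IFN-gamma libraries, and ATP5A1 is at 18903 to 20334 in A197-270 libraries and 15051 to 16116 in vector libraries.

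Tissue-specific isoforms were low. COX4I2, COX6A2, COX7A1 and COX7B2, known from lung, striated muscle or testis, were at 0 in every library, whereas their common counterparts COX4I1, COX6A1 and COX7A2 averaged at least 5018 normalized counts in every group. COX6B2 averaged 48.0 ± 14.1 in A197-270 + IFN-gamma cells and 66.7 ± 19.5 in vector + IFN-gamma cells, and 57.0 ± 6.09 in A197-270 cells and 54.5 ± 6.40 in vector cells. NDUFA4L2 averaged 41.2 ± 9.14, 37.1 ± 10.8, 31.9 ± 10.6 and 33.5 ± 7.35 in A197-270 + IFN-gamma, vector + IFN-gamma, A197-270 and vector cells, and its partner NDUFA4 5149 ± 424, 4985 ± 349.7, 5141 ± 280.4 and 4901 ± 236. Neither COX6B2, COX8C, NDUFA4 nor NDUFA4L2 was called in any of the 5 comparisons. UQCRHL, a retrocopy of UQCRH, had 0.47 with IFN-gamma present (limma adjusted p = 0.0145), but it can share reads with UQCRH, which had 0.19 (0.0193). The read-through row ATP5J2-PTCD1 ran from 1.20 to 243 normalized counts and was not called.

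IFN-gamma by itself lowered a set of nuclear subunits. In vector + IFN-gamma cells relative to vector cells, 20 of 79 nuclear subunits fell and 0 rose, where 9.79% of all tested genes were called lower and 7.32% higher, with a median log2 fold change of -0.11 against -0.0092 for all tested genes. Under equal totals 16 of 90 nuclear members fell, against 21 with the deposited scaling. Values of the 79 subunits lay wholly below the vector group in 38 cases and above it in 0, where 19.2% and 16.3% of all tested genes did so. These are the same vector + IFN-gamma libraries against which the construct was compared above, so the higher values in the construct comparison with IFN-gamma and the falls here share libraries.

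Among the called subunits, the falls were largest in UQCRB (-0.31), ATP5F1 (-0.28), NDUFB8 (-0.26), NDUFS1 (-0.26), NDUFS5 (-0.24), COX4I1 (-0.24) and ATP5A1 (-0.24), with limma adjusted p from 0.000322 to 0.00465. COX4I1, for example, averaged 7381 ± 442 normalized counts in vector + IFN-gamma cells and 8724 ± 149.9 in vector cells. UQCRFS1, the Rieske iron-sulfur protein of complex III, averaged 2235 ± 9.40 in vector + IFN-gamma cells and 2569 ± 82.1 in vector cells (log2 -0.20). The complex I assembly factor NDUFAF4 rose, at 1807 ± 72.5 in vector + IFN-gamma cells and 1538 ± 58.5 in vector cells (log2 0.23, adjusted p = 0.014), a call lost without vector + IFN-gamma 9 (0.0684).

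In A197-270 + IFN-gamma relative to A197-270 cells, 4 of 90 nuclear members fell and 0 rose, where 3% of all tested genes were called lower and 4.19% higher. They were ATP5S (-0.37), ATP5D (-0.30), ATP5F1 (-0.20) and NDUFS1 (-0.19), and the count was 7 without A197-270 5 and 2 without A197-270 + IFN-gamma 12. The ATP5D call was lost in 5 alternatives that left out 1 library (adjusted p 0.0547 to 0.136), and that of ATP5F1 without A197-270 + IFN-gamma 12 (0.054). NDUFS1 averaged 7216 ± 241 in A197-270 + IFN-gamma cells and 8216 ± 117 in A197-270 cells (adjusted p = 0.00509).

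Of the mitochondrially encoded genes, limma called 0 of 13 in either direction in vector + IFN-gamma against vector and 0 of 13 in A197-270 + IFN-gamma against A197-270. Values lay wholly above the vector group for 2 of 13 in vector + IFN-gamma cells and wholly below the A197-270 group for 2 of 13 in A197-270 + IFN-gamma cells, where 16.3% and 13% of all tested genes did so. Of the 79 nuclear subunits 3 lay above and 13 below in the A197-270 comparison, where 12.1% of all tested genes lay above. At an unadjusted p under 0.05 there were 2 and 3 of 13, against 4401 and 2941 of all 14049 tested genes, and edgeR's quasi-likelihood test called 0 in both. MT-ND1 had the highest or second highest log2 fold change in both comparisons, at 0.37 and 0.34 (limma adjusted p = 0.0826 and 0.168), and MT-CYB had -0.07 and -0.51 (0.78 and 0.0575). In the vector comparison 2 genes were called higher without vector 3 and 1 without A197-270 4 or A197-270 5, libraries that enter that comparison through the pooled spread alone. In the A197-270 comparison 1 was called higher without A197-270 5, 2 were called lower without vector 3, and 1 was called lower without A197-270 4 or A197-270 + IFN-gamma 12. Spearman's rho between fold change and gene start over the 12 heavy-strand genes was -0.594 with IFN-gamma in vector cells and -0.874 in A197-270 cells. These run against the signs of the construct comparisons, with which they share libraries.

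The interaction, which is the log2 fold change for IFN-gamma with the construct less the one without it, passed limma's test for 0 of 103 members, where 0.819% of all tested genes were called higher and 0.0783% lower. At an unadjusted p under 0.05 there were 13 of 103 members, all of them nuclear, against 1665 of all 14049 tested genes, and edgeR called 0 members. MT-CYB had -0.43 ± 0.212 SE (adjusted p = 0.439), UQCRB 0.25 ± 0.075 SE (0.186) and COX4I1 0.18 ± 0.0597 SE (0.242). Without A197-270 5 and vector 3, 2 nuclear members were called lower in the interaction.

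Among the 79 tested nuclear subunits, genes with a longer coding sequence tended to have the higher fold changes in the construct comparisons. Spearman's rho between coding length and log2 fold change was 0.305 for A197-270 + IFN-gamma against vector + IFN-gamma and 0.444 for A197-270 against vector, against 0.0427 and 0.141 over 14019 tested genes with a length. The sign was opposite for A197-270 + IFN-gamma against A197-270 (-0.412, all genes -0.0470) and vector + IFN-gamma against vector (-0.241, all genes 0.0706), which share libraries with the construct comparisons. These are across genes, which are not independent replicates. Single genes departed from this. NDUFS1 with 2223 coding bases, ATP5A1 with 1659 and ATP5B with 1587 rose in both comparisons, but so did COX7A2L with 342, whereas NDUFV3 with 1419 fell in both and SDHA with 1992 did not pass without IFN-gamma.

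Nuclear subunit genes are known targets of NRF1, ETS-family factors such as GABP, and YY1. RefSeq promoters (GRCh38.p14, 250 bases before the start) were matched for 65 of the 79 tested nuclear subunits and for 11244 tested genes, and both strands were searched. The NRF1 site GCGCA, any base, GCGC was in 14 of 65 (21.5%) and in 9.98% of all, the ETS site CCGGAAG in 16 (24.6%) and 15.2%, and the YY1 site AANATGGC in 4 (6.15%) and 3.98%. The 3 motifs were searched separately. These letters did not follow the direction of change: ATP5A1, ATP5F1, COX7A2L, NDUFV1 and UQCRC2, which rose in both construct comparisons, had 0 sites of any of the 3 motifs, while UQCR11, which fell without IFN-gamma, had 2 NRF1 and 2 ETS sites. Promoters of 2 subunits that rose in both are shown only to show what such a site looks like, picked because they hold 1, which is in capitals. In NDUFS1 (chr2:206159445-206159694, minus strand) it is an ETS site read on the opposite strand, starting 157 bases before the start, and in ATP5C1 (chr10:7787927-7788176, plus strand) an NRF1 site starting 22 bases before it. A match is a description of letters, and binding was not measured.
NDUFS1: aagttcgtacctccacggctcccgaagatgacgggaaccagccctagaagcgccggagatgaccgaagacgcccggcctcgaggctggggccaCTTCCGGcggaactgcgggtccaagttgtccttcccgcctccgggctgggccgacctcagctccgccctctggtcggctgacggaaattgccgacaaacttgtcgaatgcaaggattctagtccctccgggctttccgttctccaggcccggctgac
ATP5C1: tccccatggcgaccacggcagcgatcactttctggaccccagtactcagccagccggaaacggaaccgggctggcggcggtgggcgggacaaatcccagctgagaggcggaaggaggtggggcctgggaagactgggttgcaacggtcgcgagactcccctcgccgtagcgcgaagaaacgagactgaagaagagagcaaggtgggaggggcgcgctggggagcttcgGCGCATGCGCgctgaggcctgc

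Genes that maintain, transcribe and process mitochondrial RNA were looked at as a list of 37. In A197-270 + IFN-gamma relative to vector + IFN-gamma cells 11 rose and 9 fell (median log2 fold change 0.054), and in A197-270 relative to vector cells 3 rose and 4 fell (median -0.037). Of all tested genes, 18.6% rose and 16.2% fell in the comparison with IFN-gamma, and 12.5% and 12.6% in the one without. PNPT1, a mitochondrial RNA-degrading exonuclease that is also induced by interferons, averaged 3919 ± 206 normalized counts in A197-270 cells and 10654 ± 207 in vector cells (log2 -1.44 ± 0.0539 SE, limma adjusted p = 5.96e-11). With IFN-gamma it averaged 7211 ± 518 in A197-270 + IFN-gamma cells, above A197-270 cells (0.88), and 8392 ± 362 in vector + IFN-gamma cells, below vector cells (-0.35). It was the list's only member called in the interaction. LRPPRC, which binds and stabilizes mitochondrial mRNAs, averaged 18803 ± 784 in A197-270 + IFN-gamma cells and 14557 ± 162 in vector + IFN-gamma cells (0.37), and 21021 ± 663 in A197-270 cells and 16607 ± 230.1 in vector cells (0.34). The part of either gene in the mitochondrial values was not tested.

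Counts for the following lists stand beside the same background of 18.6% higher and 16.2% lower with IFN-gamma present, and 12.5% and 12.6% without. Of 14 nuclear regulators of mitochondrial biogenesis, 3 rose and 3 fell with IFN-gamma present, and 3 rose and 1 fell without. Among them MYC had 0.98 and 0.77, and GABPA, the DNA-binding subunit of GABP, 0.27 and 0.18. TFEB fell with IFN-gamma present, at -0.40 (limma adjusted p = 0.0400), the lowest value of this list. Of 44 rows of assembly factors and other respiratory chain genes outside the naming rule, 10 rose and 7 fell with IFN-gamma present, and 6 rose and 10 fell without. SCO2 had separate rows, which held both the lowest (-2.72) and the highest (2.62) log2 fold change of the list with IFN-gamma present. Neither of these rows was called by limma. LYRM7, which helps to insert UQCRFS1 into complex III, averaged 1733 ± 15.6 in A197-270 + IFN-gamma cells and 1038 ± 63.8 in vector + IFN-gamma cells, and 2194 ± 118 in A197-270 cells and 1262 ± 51.8 in vector cells (log2 0.74 and 0.80). COX18, needed to insert MT-CO2 into the membrane, had 0.56 and 0.41. The largest fall of this list without IFN-gamma was that of UQCC2, at -0.36 (limma adjusted p = 0.00103). Of 78 mitochondrial ribosome proteins 12 rose and 11 fell with IFN-gamma present, and 4 rose and 22 fell without.

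Replication-dependent histone mRNAs, which normally lack a poly(A) tail, were lower with the construct, opposite in direction to the mitochondrial values. Of 33 tested histone rows, 1 rose and 9 fell in A197-270 + IFN-gamma relative to vector + IFN-gamma cells, and 0 rose and 14 fell in A197-270 relative to vector cells. Over all tested genes 18.6% were higher and 16.2% lower in the comparison with IFN-gamma, and 12.5% and 12.6% in the one without. Over 71 rows they summed to 6656 to 7521 normalized counts in A197-270 + IFN-gamma, 8199 to 10362 in vector + IFN-gamma, 5886 to 6463 in A197-270 and 7850.5 to 8572 in vector libraries, so neither construct pair overlapped. Their part, and that of poly(A) selection or RNA quality, in the mitochondrial results was not tested.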

How the data were processed

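RNA of 12 HEK293 libraries was sequenced after poly(A) selection, per the labels' protocols. The deposited table holds a signal, gene read counts that the authors divided by 1 factor per library. Every value was a whole number of reads divided by that factor (tolerance 0.001 read), and the factors matched median-of-ratios factors. HISAT2 2.1.0, StringTie 1.3.3b, DESeq2 1.22.1 and hg38 are named, with no roles, per the submitters' processing notes; the annotation release, read length and strand setting are not given in the sources used here. Log2(value + 1) of 14049 genes with a mean of at least 10 was fitted over all 12 libraries with limma 3.58.1 (R 4.3.3, trend), two-sided, adjusted by Benjamini-Hochberg within each of 5 comparisons at 0.05; the script was tested on simulated data. Alternatives were edgeR 4.0.16 on recovered reads (TMM), equal totals, quantile normalization, other pseudocounts and filters, only the 2 groups compared, and each library left out. All 111 rows matched GENCODE 29 (GRCh38) by identifier, the source of coordinates; RefSeq is the source of promoters. Members and lists were chosen with earlier results of these data known. Genes named are all 13 mitochondrial rows, up to 2 called nuclear members per complex, direction and comparison, the most abundant nuclear member per complex, paralog pairs and up to 3 called genes per list and comparison. ATP5C1, NDUFS5, COX8C, ATP5J2-PTCD1 and the ratios between genes were chosen after their values were seen.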

Additional observations from a re-analysis of the deposited data

How the results depend on the processing

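No paired analysis was possible because the libraries are numbered 1 to 12 and no group shares a number. The labels name no batch. With libraries scaled to equal totals, nuclear members higher and lower were 7 and 20 for A197-270 against vector and 15 and 17 with IFN-gamma in both groups; over all genes these were 1161 and 2741, and 1512 and 4170. The same scaling gave 830 genes lower in vector + IFN-gamma against vector and 23 lower in the interaction. The median of all genes moved by less than 0.1 under every scaling. With only the 2 groups compared, 1 mitochondrial gene was higher in vector + IFN-gamma against vector, and 1 was lower in A197-270 + IFN-gamma against A197-270 under quantile normalization and with a minimum mean of 50. Without both A197-270 5 and vector 3, chosen after seeing the data, 3 nuclear members were lower in A197-270 against vector, 3 mitochondrial genes were higher in vector + IFN-gamma against vector and 1 in A197-270 + IFN-gamma against A197-270, and 2 nuclear members and 135 genes were lower in the interaction. Mitochondrial genes higher with the construct were then 10 without and 10 with IFN-gamma. The libraries left out enter the comparison with IFN-gamma through the pooled spread alone, and its fold changes were the same as before. The causes were not tested.

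Leaving out 1 library at a time gave 9 to 10 mitochondrial genes higher for A197-270 against vector and 5 to 9 for A197-270 + IFN-gamma against vector + IFN-gamma. For vector + IFN-gamma against vector it gave 0 to 2 higher, and for A197-270 + IFN-gamma against A197-270 0 to 1 higher and 0 to 2 lower. Nuclear members higher were 8 to 14, 17 to 29, 0 to 1 and 0 to 1 in these 4 comparisons, and lower 2 to 10, 0 to 4, 15 to 26 and 2 to 7. All genes higher were 1319 to 1823, 2073 to 2666, 592 to 1157 and 389 to 603, and lower 1268 to 1873, 1622 to 2315, 801 to 1447 and 186 to 489. In the interaction they were 96 to 151 higher and 6 to 78 lower. Counts over all genes moved by over 1.5 times without vector 1, vector 2 or vector + IFN-gamma 9 (vector + IFN-gamma against vector), and without A197-270 4 (higher) or A197-270 4, A197-270 6, A197-270 + IFN-gamma 10 or A197-270 + IFN-gamma 11 (lower, A197-270 + IFN-gamma against A197-270). The few lower in the interaction moved so without A197-270 4, A197-270 6, vector 1, vector 2, vector 3, A197-270 + IFN-gamma 12 or vector + IFN-gamma 8. The median of mitochondrial minus nuclear values was 0.53 to 0.90 and 0.18 to 0.52 in the construct comparisons.

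Signs reversed for 9 mitochondrial genes, each in a comparison where its change did not pass the test. For A197-270 + IFN-gamma against A197-270, MT-CO1 had 0.035 under quantile normalization, 0.00116 in edgeR and 0.15 without the deepest libraries, where MT-ATP6 had 0.012 and MT-ATP8 0.091. For vector + IFN-gamma against vector, without those libraries MT-CYB had 0.051, MT-ND4 0.090 and MT-ND4L 0.12; MT-ND4 had 0.086 under quantile normalization and MT-ND4L 0.0029 under equal totals. Leaving out 1 library gave, for A197-270 + IFN-gamma against A197-270, -0.095 to 0.17 for MT-ND2, -0.17 to 0.16 for MT-CO1, -0.34 to 0.012 for MT-ATP6 and -0.31 to 0.091 for MT-ATP8. For A197-270 + IFN-gamma against vector + IFN-gamma it gave -0.060 to 0.34 for MT-ND6 and -0.19 to 0.043 for MT-ND2. For vector + IFN-gamma against vector it gave -0.16 to 0.051 for MT-CYB, -0.13 to 0.18 for MT-ND5, -0.0083 to 0.24 for MT-CO1, -0.15 to 0.090 for MT-ND4 and -0.14 to 0.12 for MT-ND4L.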
